A study of Mus musculus with 23 samples.

Results

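The R-loop list holds the places where the S9.6 antibody, which binds DNA-RNA hybrids, gave a called peak in CD4 naive T cells of mice. Every interval of that list on chromosomes 1 to 19 and X was taken, which left 1465 of its 1499 peaks, among 29404 peaks in the 4 lists of the series. The peaks came from CUT&Tag, in which an antibody tethers a transposase that cuts and tags nearby DNA, on cells of the spleen and of pLN, as the labels put it. Of the 23 samples, 8 name the R-loop list, in 4 groups of 2: WT without RNase H, DDX55 knockout without RNase H, WT with 20 U of RNase H during the antibody step, and DDX55 knockout with the same RNase H. DDX55 is a DEAD-box RNA helicase. H3K9me3, RNA polymerase II and DDX55, the targets of the other lists, were each profiled in WT and in DDX55 knockout cells as well. Their lists are merged too, so a peak in them, also one of DDX55, is not known to come from WT cells. The age and sex of the mice, the way the gene was knocked out and whether the libraries of a group came from separate mice are not given in the sources used here.

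That list is 1 merged set of positions, without a height or score and without values per library. The depth is therefore unknown, no spread between replicates could be had, and neither a knockout effect nor an RNase H effect was measured. A peak in it is a place of S9.6 signal and is not known to be lost with RNase H. Intervals given with shares are 95% intervals that cover counting error only, since peaks are not replicates. The RNA polymerase II list was used to look at the cell label: peaks lay within 3000 bp of 5 of 5 T cell genes (Cd3d, Cd3e, Cd3g, Cd4, Cd28), 4 of 5 naive cell genes (Ccr7, Il7r, Tcf7, Lef1), 1 of 5 B cell genes (Cd79a), 0 of 5 CD8 T and NK cell genes and 0 of 5 myeloid genes. Of all 21631 protein-coding genes, 37.0% had such a peak.

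An R-loop forms when RNA pairs with one DNA strand and leaves the other strand unpaired, most often when a nascent transcript folds back onto its template. RNase H degrades the RNA of such hybrids, and helicases can unwind them. R-loops are known from promoters rich in CpG, where clusters of G on the displaced strand favour them, from the ends of genes and from repeated sequence, and in B cells they form at the switch regions of the heavy chain locus.

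Promoters were a small part of the list. Of 1377 R-loop peaks on chromosomes with RefSeq promoter windows, 39 (2.83%, 2.02 to 3.85) met a window, and the windows make up 0.356% of those chromosomes. The first share counts any shared base, so peak width alone raises it above the second, and the 2 do not measure an excess. Of 26794 genes with such a window, which runs from 250 bases before to 50 after a transcript start, 47 genes (0.175%) had a window that met a peak, and so did 52 of the 32619 windows (0.159%). The windows below show the 2 settings of those promoters, with runs of at least 4 G in capitals, read 5′ to 3′ along the gene. In the first 3 the peak also met RNA polymerase II. Zyx, which encodes a focal adhesion protein, lies at chr6:42349578-42349877 on the plus strand. Mpc2, for a subunit of the mitochondrial pyruvate carrier, lies at chr1:165461010-165461309, and Mocs3, for an enzyme of molybdenum cofactor synthesis, at chr2:168230372-168230671, both on the plus strand. In the other 3 the peak met no RNA polymerase II. Itgax, which encodes the myeloid integrin chain CD11c, lies at chr7:128129300-128129599 on the plus strand. Neurog1, for a transcription factor of neurons, lies at chr13:56252131-56252430, and the olfactory receptor gene Olfr531 at chr7:140400995-140401294, both on the minus strand. The peaks covered all 300 bases of each window. All 6 come from RefSeq, GRCm38.p6, and Zyx, Mpc2 and Mocs3 were picked after their values were seen.
Zyx: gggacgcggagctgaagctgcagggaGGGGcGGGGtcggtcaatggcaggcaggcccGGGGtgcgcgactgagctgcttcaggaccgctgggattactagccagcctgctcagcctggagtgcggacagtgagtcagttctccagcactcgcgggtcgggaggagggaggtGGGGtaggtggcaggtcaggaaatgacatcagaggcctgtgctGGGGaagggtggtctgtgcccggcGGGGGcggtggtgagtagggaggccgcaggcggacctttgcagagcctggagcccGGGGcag
Mpc2: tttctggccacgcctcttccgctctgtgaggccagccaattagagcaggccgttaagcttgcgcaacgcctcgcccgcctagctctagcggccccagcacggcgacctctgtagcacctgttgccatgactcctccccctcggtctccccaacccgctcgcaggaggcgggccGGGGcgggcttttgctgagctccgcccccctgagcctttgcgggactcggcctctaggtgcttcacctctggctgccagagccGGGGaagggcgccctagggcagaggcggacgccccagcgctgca
Mocs3: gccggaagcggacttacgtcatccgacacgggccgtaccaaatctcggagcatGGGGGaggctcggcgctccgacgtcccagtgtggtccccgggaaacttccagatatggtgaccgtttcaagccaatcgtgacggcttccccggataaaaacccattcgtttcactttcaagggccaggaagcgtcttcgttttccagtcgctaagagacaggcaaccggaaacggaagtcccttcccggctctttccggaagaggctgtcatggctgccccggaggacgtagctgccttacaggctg
Itgax: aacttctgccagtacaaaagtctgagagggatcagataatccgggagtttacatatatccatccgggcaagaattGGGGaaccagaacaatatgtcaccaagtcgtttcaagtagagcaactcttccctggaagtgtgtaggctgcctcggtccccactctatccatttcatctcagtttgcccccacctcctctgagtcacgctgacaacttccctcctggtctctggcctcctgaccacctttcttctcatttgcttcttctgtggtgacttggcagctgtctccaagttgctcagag
Neurog1: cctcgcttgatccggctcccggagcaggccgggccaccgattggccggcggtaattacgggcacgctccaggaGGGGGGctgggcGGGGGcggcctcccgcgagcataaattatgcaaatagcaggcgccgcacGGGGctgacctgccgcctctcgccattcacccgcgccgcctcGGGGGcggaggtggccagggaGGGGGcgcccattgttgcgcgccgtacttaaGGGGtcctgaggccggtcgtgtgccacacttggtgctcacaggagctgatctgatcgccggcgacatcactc
Olfr531: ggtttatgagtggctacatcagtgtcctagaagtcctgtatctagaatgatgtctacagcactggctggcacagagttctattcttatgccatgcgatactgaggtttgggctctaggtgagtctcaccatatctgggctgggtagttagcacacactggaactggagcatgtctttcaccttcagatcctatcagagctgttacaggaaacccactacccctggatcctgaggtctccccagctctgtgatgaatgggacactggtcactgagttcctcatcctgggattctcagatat

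Of these 6 windows, those with RNA polymerase II were rich in G, C and CpG, and those without it spanned a wide range. The Zyx window was 68.3% G and C with 18 CpG and 7 runs of G, the Mpc2 window 68.7% with 24 CpG and 2 runs, and the Mocs3 window 59.0% with 26 CpG and 1 run. The Neurog1 window, at 69.3% with 32 CpG and 6 runs, resembled them. The Itgax window held 5 CpG and 1 run, and the Olfr531 window 1 CpG and 0 runs at 49.0%.

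R-loop peaks were mostly under 1000 bp wide, and the minority of wider ones held most of the covered DNA. Widths ran from 190 to 13682 bp with a median of 524 bp (quartiles 398 and 972 bp), and the peaks covered 1255.4 kb in all. By class, 75 peaks were under 300 bp wide, 597 were 300 bp to under 500 bp, 436 were 500 bp to under 1000 bp, 255 were 1000 bp to under 2000 bp and 102 were 2000 bp or wider. The first class held 1.54% of the covered bases and the last, with 6.96% of the peaks, held 28.0%. Peaks of at least 1000 bp are called wide below and those under 500 bp narrow. The 357 wide peaks (24.4%, 22.2 to 26.7) held 702.7 kb or 56.0% of the covered bases, while the 672 narrow peaks (45.9%) held 260.7 kb or 20.8%. The widths did not break at either limit, with peaks of 992 and 1001 bp on the sides of the first and a peak of 500 bp just above the second.

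The R-loop list had a larger share of very wide peaks than the other lists, and most of these lay in a few crowded stretches described below. Median widths were 638 bp for the 10890 RNA polymerase II peaks, 607 bp for the 16161 H3K9me3 peaks and 427 bp for the 210 DDX55 peaks on the same chromosomes. Peaks of 2000 bp or more made up 0.882% of the RNA polymerase II list, 4.47% of the H3K9me3 list and 0.476% of the DDX55 list, against 6.96% (5.71 to 8.39) here. Of the 102 such R-loop peaks, 85 lay in those stretches, and among the 1000 R-loop peaks elsewhere the share was 1.7% (17 peaks), below that of H3K9me3. The widest H3K9me3 peak (13766 bp) was also wider than the widest R-loop peak, and 25.9% of that list was at least 1000 bp wide. No 2 R-loop peaks were closer than 1445 bp, while the closest pairs of the other lists were 10, 3 and 225 bp apart in that order. When peaks of the other lists with gaps under 1445 bp were joined, the shares of 2000 bp or more became 3.47%, 5.15% and 2.51%. The joining distance behind the lists is not given in the sources used here, so widths are set side by side and not tested.

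**Figure D1:**
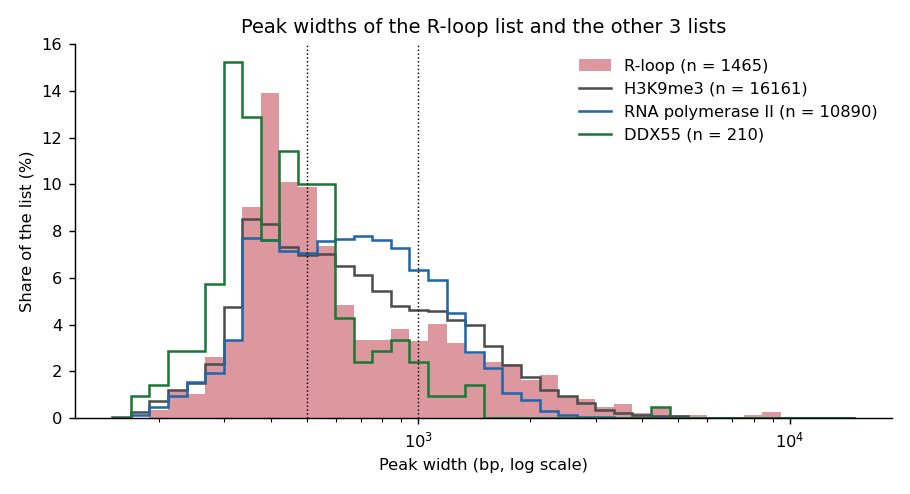
Share of each list's peaks (percent, vertical) by peak width (bp, log scale, horizontal), with R-loop peaks filled, the other 3 lists as lines and dotted lines at 500 and 1000 bp. The R-loop peaks have a median of 524 bp, are most frequent somewhat below it and reach beyond 2000 bp in 6.96% of cases.

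Wide R-loop peaks had other R-loop peaks close by more often than narrow ones, which mostly lay alone. Still, 160 of the 357 wide peaks had no neighbour within 10 kb. The median gap to the nearest R-loop peak fell with each wider class, from 736 kb under 300 bp to 561, 111, 11.9 and 4.72 kb at 2000 bp and over. A neighbour within 10 kb was present for 197 of 357 wide peaks (55.2%, 49.9 to 60.4) and for 59 of 672 narrow peaks (8.78%, 6.75 to 11.2), a difference of 46.4 percentage points (40.7 to 51.8). Over all widths 352 peaks (24.0%) had such a neighbour, and the median gap was 128 kb. For RNA polymerase II, H3K9me3 and DDX55 peaks the share was 34.7%, 36.2% and 28.6%, in lists of very different size. Outside the 30 blocks described below, 18 of 112 wide R-loop peaks (16.1%) and 14 of 590 narrow ones (2.37%) had such a neighbour. Leaving out blocks removes close neighbours by definition.

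Joined at gaps of up to 10 kb, the peaks formed 106 clusters of at least 2, with 1113 peaks left alone. Clusters of 2 numbered 60 and clusters of 3 or more 46. The 10 fullest held 111 peaks. First came 21 peaks over 144.7 kb of the Igh locus, in which peaks covered 35.3% of the sequence, and then 18 peaks over 110.0 kb of Dnm3, in which they covered 34.1%. A second Dnm3 cluster of 7 peaks, all of them wide, was covered to 45.7% over 42.3 kb. The cluster over Fam163b, Dbh and Sardh held 9 peaks in 50.5 kb and was covered to 38.6%. Of 246 pairs of adjacent peaks within 10 kb, 88 joined 2 wide peaks.

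**Figure D2:**
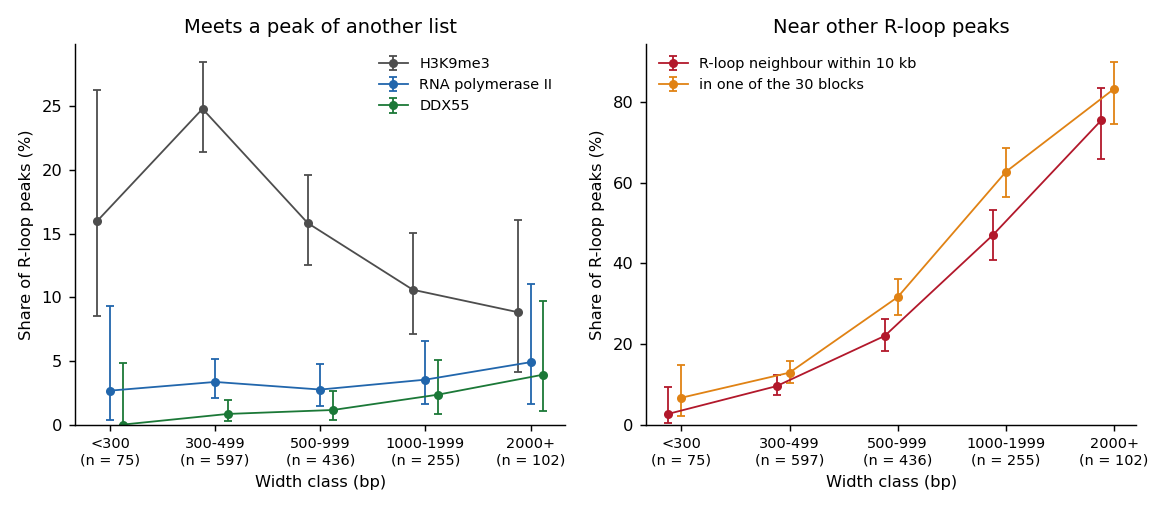
Share of R-loop peaks (percent, with exact 95% intervals) by width class (bp), at left those that met a peak of each other list and at right those with an R-loop neighbour within 10 kb or inside a block of crowded peaks. The neighbour share climbs from 2.67% to 75.5% across the classes while the share that met H3K9me3 is highest, at 24.8%, from 300 bp to under 500 bp.

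At a larger scale the crowded peaks fell into 30 blocks, which held 68.6% of the wide peaks. A block here is a run of at least 6 peaks with gaps of up to 100 kb, a definition chosen after the spacing was seen. The blocks lay on 14 of 20 chromosomes and spanned 8.63 Mb, or 0.330% of the chromosome spans (each from the lowest to the highest gene or R-loop peak on the chromosome). They held 465 peaks (31.7%) and 50.7% of the covered bases, with 245 of 357 wide peaks but 82 of 672 narrow peaks (12.2%). Of the 12 peaks of 5000 bp or more, 8 lay in blocks. Blocks ran from 27.9 to 989.6 kb with a median of 271 kb.

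The fullest block, with 91 peaks of which 55 were wide, lay in the variable region of Igh. The next held 52 peaks (34 wide) over 572.0 kb of chromosome 18 with 0 protein-coding genes, and included a peak of 8915 bp. Dnm3 held 32 (21 wide), in 269.4 kb of which 23.4% was covered. A block of 25 peaks (15 wide) spanned 610.1 kb of olfactory receptor genes on chromosome 7. A block of 22 lay at Uaca on chromosome 9, and another of 22 at the long noncoding RNA gene D030024E09Rik on chromosome 15. The block of 16 peaks from Adamtsl2 to Sardh was the most densely covered of the 30, at 29.2% of 109.4 kb. Smaller blocks lay at Pard3 (14 peaks), Ttll5 (13), Nrp1 (11), the Itgam and Itgax pair (8), Kcnj15 (8) and Rora (7).

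Blocks held few peaks of RNA polymerase II or H3K9me3 for their length. In 24 of the 30 no R-loop peak met any other list. Of the 30, 15 held no protein-coding gene, 20 no RNA polymerase II peak and 22 no H3K9me3 peak anywhere in their span. RNA polymerase II peaks numbered 12 in all blocks together, or 1.39 per Mb against 4.17 over all chromosomes, and H3K9me3 peaks 15, or 1.74 per Mb against 6.19. Of the 210 DDX55 peaks 2 lay in blocks, which make up 0.330% of the chromosome spans, too few to compare. One block differed: all 6 peaks of the 27.9 kb block at the start of chromosome 17 (chr17:3008958-3036835) met H3K9me3.

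**Figure D3:**
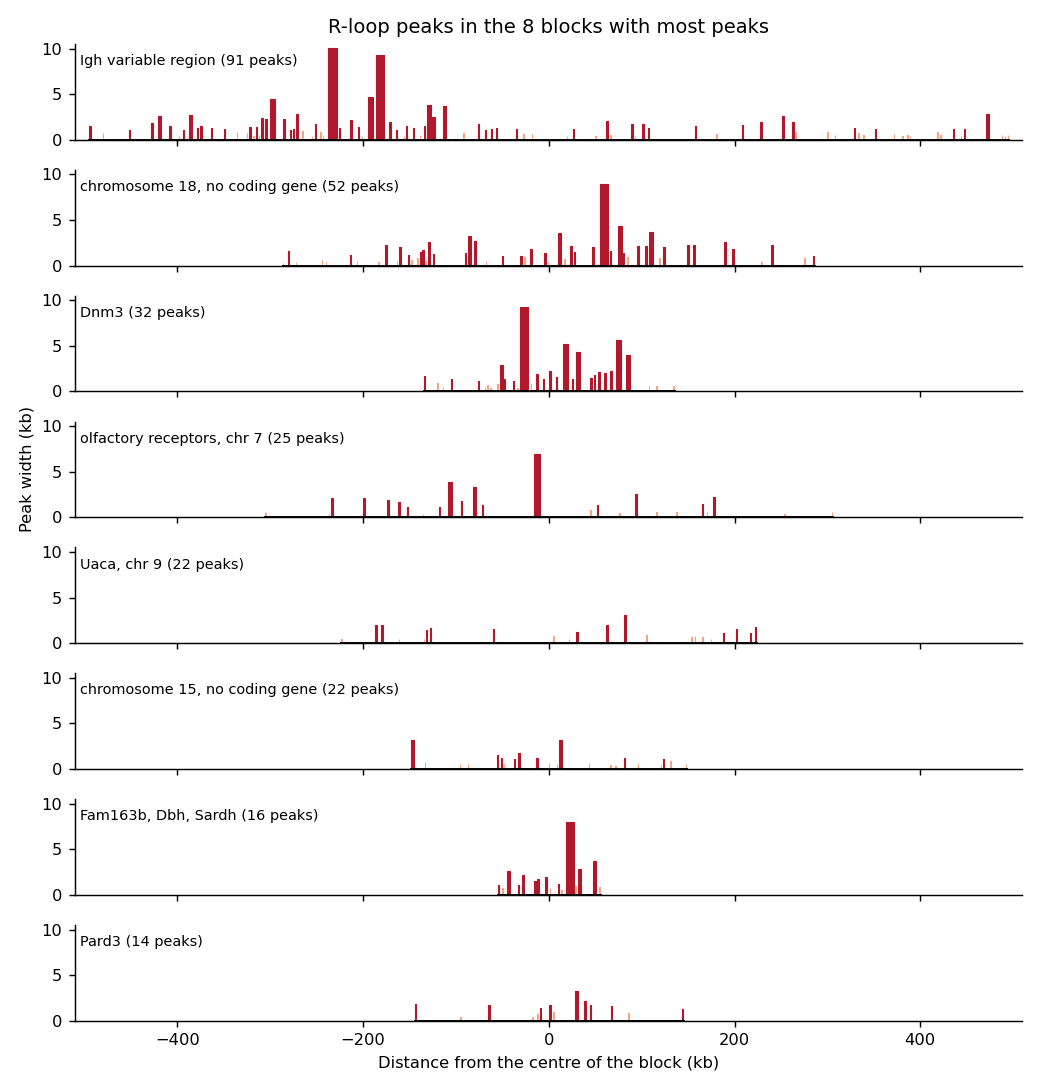
R-loop peaks in the 8 blocks with most peaks, each bar a peak drawn at its distance from the block's centre (kb, horizontal) with its width as height (kb, vertical), wide peaks dark and others light, and the black line marking the block's span. The Igh block holds 91 peaks over 989.6 kb and the Dnm3 block 32 over 269.4 kb, both with peaks above 9 kb.

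Igh held by far the most peaks of the antigen receptor loci, and Tcrb none. Igh encodes the antibody heavy chain and Tcra the T cell receptor alpha chain, each from many variable (V) segments. Of the 97 peaks in Igh, 15 met a V segment, 1 met a constant gene (Ighd) and 81 met neither. They touched 15 of the 184 V segments (8.15%). V segments make up 2.16% of the locus, of which 5.09% lay under peaks. Igh held 6.62% of the R-loop peaks and 11.2% of the covered bases, and 56 of its peaks were wide, with a median width of 1125 bp. Of the 21 peaks in Tcra, with a median width of 615 bp, 5 met a V segment and 2 met the delta constant gene Trdc, which lies inside Tcra. The peak of 8256 bp met both, 1 peak met a segment of another kind and 14 met no segment or constant gene. Igk, the kappa light chain locus, held 3 peaks of median width 406 bp and none on its 162 V segments, and Tcrb held 0.

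R-loop peaks lay in 346 of 21631 protein-coding genes (1.6%), and 6 genes held many. One peak was present in 302 of the 346 genes (87.3%), 24 genes held 2, 10 held 3 and 4 held 4. The 6 others held 81 peaks. Dnm3, which encodes a dynamin GTPase of membrane fission, held 32. Ttll5, for a tubulin polyglutamylase, held 13, and so did Pard3, for a scaffold of cell polarity. Sox5, for an HMG-box transcription factor, held 9, the nuclear receptor gene Rora 8 and Uaca 6.

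The number of peaks and the length covered ranked genes differently. Dnm3 led in covered length with 62941 bp, before Ttll5 (22455 bp) and Pard3 (18900 bp). Next came genes with few but wide peaks. Dbh, for the enzyme that makes noradrenaline from dopamine, had 9680 bp under 3 peaks, which was 54.7% of its 17698 bp. Cd4, for the coreceptor that defines these cells, had 8535 bp under 1 peak, or 36.2% of the gene. Fam163b had 7441 bp under 4 peaks (23.2%) and Sardh, for sarcosine dehydrogenase of mitochondria, 6706 bp under 3 (11.2%). Sox5 and Rora had a similar length covered (8157 and 7994 bp), which was 0.855% and 1.09% of these long genes. Olfr531, at 915 bp, lay wholly under a peak of 1761 bp. Also covered in large part were Duxf3 (37.3%), a double homeobox gene of a repeated family, Neurog1 (23.5%) and the Notch target gene Hes1 (15.6%).

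Several genes with most peaks or most covered length held no peak of the other lists. In the spans of Dnm3, Pard3, Sox5, Uaca, Fam163b, Dbh, Sardh, Gfra1 and Nrp1 there was no peak of any other list, and none of RNA polymerase II within 3000 bp. Only 37.0% of all protein-coding genes had such an RNA polymerase II peak, so its absence does not set these genes apart. Gfra1 and Nrp1 encode receptors for a neurotrophic factor and for semaphorins. Ttll5 had 1 RNA polymerase II peak, Rora 2 and Atrnl1 3 within 3000 bp. Rora and Atrnl1 also had 1 H3K9me3 peak each in the span, which in Rora met an R-loop peak. Cd4 had 4 RNA polymerase II peaks.

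**Figure D4:**
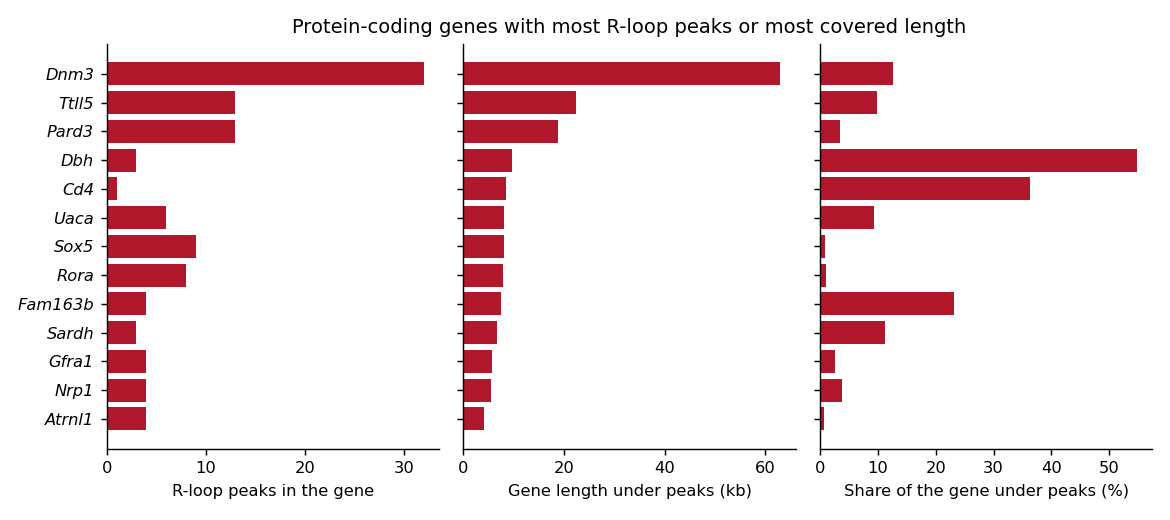
Protein-coding genes with most R-loop peaks or most covered length, with the number of peaks (left), the length under peaks (kb, middle) and the share of the gene under peaks (percent, right). Dnm3 leads in number and length with 32 peaks and 62941 bp, and Dbh in share with 54.7%.

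Long genes held a peak more often, roughly in proportion to their length. The share of genes with a peak was 0.207% up to 10 kb, 0.642% from 10 to 30 kb, 1.83% from 30 to 100 kb, 5.56% from 100 to 300 kb and 16.5% above 300 kb. Per Mb of gene the same classes held 0.494, 0.389, 0.405, 0.446 and 0.527 pairs of peak and gene. Protein-coding genes as a whole held 32.1% of the R-loop peaks (29.7 to 34.5) and cover 39.4% of the chromosome spans. Genes of any class held 53.3% and cover 47.6%.

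Genes with and without RNA polymerase II held R-loop peaks in close shares. A peak was present in 125 of 7995 genes with an RNA polymerase II peak within 3000 bp (1.56%, 1.30 to 1.86) and in 221 of 13636 without (1.62%, 1.42 to 1.85). Above 300 kb the shares were 26.4% (18.9 to 35.0) and 13.7% (10.6 to 17.3), and from 30 to 100 kb they were 1.30% (0.883 to 1.84) and 2.31% (1.78 to 2.95), so the order differed between length classes.

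R-loop peaks lay near protein-coding gene ends about as often as those ends take up sequence. By midpoint, 115 of 1465 (7.85%, 6.52 to 9.35) lay within 3000 bp of either end, windows that make up 8.09% of the chromosome spans. The same share was 61.2% for RNA polymerase II, 4.02% for H3K9me3 and 23.8% for DDX55. Another 394 R-loop peaks (26.9%) lay in the body of a protein-coding gene, 294 (20.1%) in another annotated gene and 662 (45.2%) between genes. Within the 276 genes whose strand was known, 30.8%, 31.8% and 37.3% of 399 pairs of peak and gene fell in the first, middle and last part of equal length. Wide peaks were fewer in the first part (18.8% of 96 pairs, in 42 genes) than narrow peaks (36.7% of 180 pairs, in 164 genes). Of the wide peaks, Dnm3 held 21, Ttll5 9 and Pard3 8, and this contrast was not computed outside the blocks. Outside the blocks the first 10% of the gene held 19.9% of 287 pairs.

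Very long genes, several of them known as fragile sites, were the fixed group with most members hit, and nearly all of the peaks named here were short. Of 20 such genes 8 held a peak (40.0%, 19.1 to 63.9), with a median length of 1592770 bp in the list. Of all genes above 300 kb 16.5% held one, but most of these genes were much shorter. Their median length was 409996 bp with and 465441 bp without an RNA polymerase II peak within 3000 bp. The shares are thus not matched for length, and an excess in the list beyond its length was not tested. Among the 8 genes with a peak, Cntnap2, Dlg2, Dmd, Lrp1b, Magi2 and Nrxn3 had 1 each of 366 to 515 bp, and Wwox 1 of 1166 bp. The lists in this and the next paragraph were chosen with earlier results of these data known.

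The other fixed lists had few members with an R-loop peak. Except for myeloid and olfactory receptor genes, their intervals contained the 1.6% of protein-coding genes in general. Gene length differs between the lists, and of all protein-coding genes up to 10 kb only 0.207% held an R-loop peak. Of 29 genes of T cell receptor signalling 1 did (Cd4), and of 28 genes of naive identity and quiescence 1 did, Tox, which encodes an HMG-box factor, with 1 narrow peak. Of 37 genes for R-loop processing (nucleases, helicases, topoisomerases) 0 did (0 to 9.49), and 0 of 19 genes often assayed for hybrids (0 to 17.6). Ribosomal protein genes had 0 of 95 and histone genes 0 of 95 (each 0 to 3.81), B cell genes 0 of 10, and CD8 T and NK cell genes 0 of 10. Of 14 myeloid genes 2 did (14.3%, 1.78 to 42.8), the integrin chains Itgam (3 peaks, 2560 bp) and Itgax (3 peaks, 3463 bp). Both lie in 1 block, so the 2 are not separate cases. Among gene families, 2 of 1110 olfactory receptor genes did (Olfr46 and Olfr531, 0.180%, 0.0218 to 0.649). Their median length was 950 bp, and their share was near the 0.207% of genes up to 10 kb. So did 5 of 355 vomeronasal receptor genes and 5 of 397 zinc finger genes (Zfp395, Zfp536, Zfp697, Zfp804b, Zfp950). Reads in these families, and at repeated loci such as Duxf3, Sfi1 and Rn18s-rs5, can be assigned to the wrong copy.

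Among noncoding classes, 162 of 12697 long noncoding RNA genes (1.28%) held a peak, led by Gm30192 with 11 and 2610307P16Rik with 8. Over all classes 572 of 49554 genes did (1.15%). Pseudogenes had 30 of 9852. A single microRNA gene was hit, Mir6240 at chr5:114851948-114852064 on the plus strand, under a peak of 699 bp. Its mature RNA follows from RefSeq, with the seed (bases 2 to 8) in capitals, as the only microRNA in the list.
mmu-miR-6240: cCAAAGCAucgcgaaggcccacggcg

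The R-loop peaks met H3K9me3 most often of the 3 other lists. H3K9me3 marks heterochromatin, and its peaks met 265 R-loop peaks (18.1%, 16.1 to 20.2) though they cover 0.500% of the chromosome spans. RNA polymerase II peaks, which cover 0.304%, met 48 (3.28%, 2.43 to 4.32). DDX55 peaks, which cover 0.00402%, met 20 (1.37%, 0.836 to 2.10). Seen from the other side these were 1.62% of the H3K9me3 list, 0.487% of the RNA polymerase II list and 10.0% of the DDX55 list. Meeting means sharing at least 1 bp, which peak width makes more frequent. By midpoint the shares of R-loop peaks were 17.1% for H3K9me3, 1.98% for RNA polymerase II and 0.819% for DDX55. The overlap with H3K9me3 was deep, since 250 of the 265 were covered to at least 50%. No other list met 1168 peaks (79.7%), and their widest was 10106 bp.

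Wide R-loop peaks met H3K9me3 less often than narrow ones, but outside the blocks the difference was small, with an interval on both sides of 0. Of wide peaks 36 of 357 did (10.1%) and of narrow peaks 160 of 672 (23.8%), a difference of -13.7 points (-18.0 to -9.03). By class the share was 16.0%, 24.8%, 15.8%, 10.6% and 8.82% from the narrowest to the widest. In the blocks 2 of 245 wide peaks (0.816%) and 0 of 82 narrow peaks met H3K9me3. Outside them 34 of 112 wide peaks (30.4%) and 160 of 590 narrow peaks (27.1%) did, a difference of 3.24 points (-5.36 to 12.9). By midpoint that difference was -2.72 points (-10.5 to 6.55). With the blocks included, the wide share was lower on 13 and higher on 4 of the 17 chromosomes with at least 5 peaks of each kind. The median distance to the nearest H3K9me3 peak was 484 kb for all wide peaks and 106 kb for all narrow ones. Outside the blocks it was 354 kb and 79.3 kb.

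RNA polymerase II met 14 wide peaks (3.92%) and 22 narrow peaks (3.27%), a difference of 0.648 points (-1.62 to 3.43) that turned to -1.56 points (-3.22 to 0.424) by midpoint. Outside the blocks it met 12.5% and 3.73%, 8.77 points apart (3.53 to 16.3), but by midpoint the difference there was 0.521 points (-2.25 to 5.89), and a wide peak can meet more by its width alone. DDX55 met 10 wide peaks (2.80%) and 5 narrow peaks (0.744%), 2.06 points apart (0.447 to 4.37), and by midpoint 0.376 points (-0.823 to 2.15). Outside the blocks the DDX55 difference was 7.19 points (3.27 to 13.7), and 1.83 points (-0.258 to 6.76) by midpoint.

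By place, wide and narrow peaks differed most in the share in annotated genes outside the protein-coding class. That class of other genes includes the antigen receptor loci. Igh held 56 wide and 17 narrow peaks, and Tcra 8 and 3. Midpoints lay within 3000 bp of a protein-coding gene end for 25 of 357 wide peaks and 58 of 672 narrow peaks (8.63%), a difference of -1.63 points (-4.87 to 2.03). With wide set at 2000 bp it was -5.69 points (-8.75 to -0.0123). Protein-coding gene bodies held 25.2% and 26.5%, and intergenic sequence 37.3% and 49.9%. Other annotated genes held 109 wide peaks (30.5%) and 101 narrow peaks. Outside the blocks other annotated genes held 11.6% and 11.7%. Overlap with any gene was 62.5% against 47.8% over all peaks (14.7 points, 8.33 to 20.8) and 49.1% against 46.4% outside the blocks (2.67 points, -7.26 to 12.6).

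**Figure D5:**
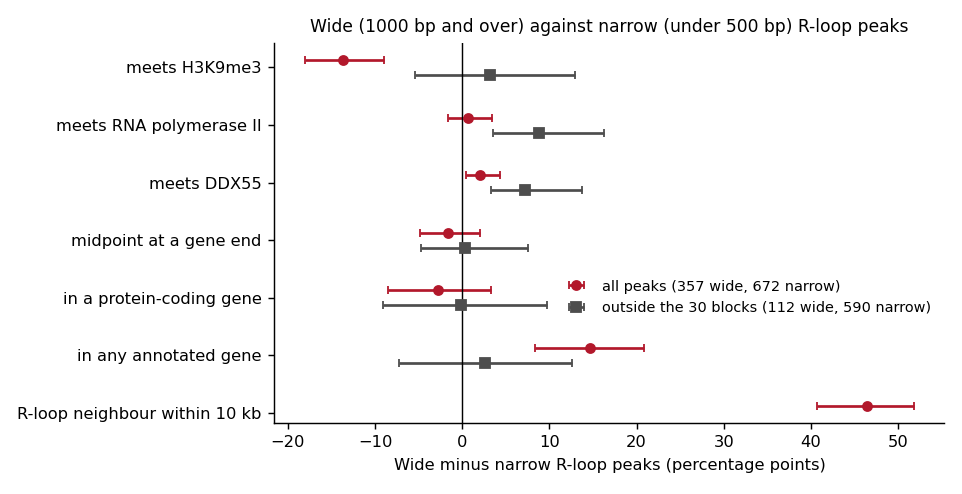
Difference between wide and narrow R-loop peaks (percentage points, with Newcombe 95% intervals) for overlap, place and spacing, over all peaks (circles) and outside the 30 blocks (squares). The H3K9me3 difference is -13.7 points over all peaks and 3.24 points outside the blocks. The neighbour difference of 46.4 points is drawn for all peaks only, since blocks are defined by spacing.

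The 48 peaks that met RNA polymerase II were of 2 kinds. The 30 without H3K9me3 had a median width of 427 bp, and 22 of them lay within 1 kb of a transcript start. Several lay at neighbouring starts of genes that run in opposite directions. A peak of 471 bp lay at Wdr12, for a ribosome biogenesis factor, and Carf. One of 1046 bp lay at Mpc2 and Dcaf6, one of 511 bp at Fbxo9 and Cilk1, one of 357 bp at the microtubule linker gene Hook1 and a long noncoding RNA gene, and one of 232 bp at Cryz and Tyw3. Others lay near the starts of Eif2b2 (455 bp), for a translation factor subunit, and Myo5a (367 bp), for a motor protein. These genes were named after their values were seen.

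The other 18, which also met H3K9me3, had a median width of 1175 bp, lay within 1 kb of a start in 0 cases and met DDX55 in 17. Those 17, which met all 3 other lists, held the widest peak of the list, 13682 bp near the start of chromosome 9 (chr9:3012248-3025929), which H3K9me3 covered wholly and RNA polymerase II over 603 bp. A peak of 5753 bp over the ribosomal RNA pseudogene Rn18s-rs5 was covered over 5672 bp by H3K9me3, 4605 bp by RNA polymerase II and 5067 bp by DDX55. Others lay in the centrosomal gene Sfi1 (673 and 719 bp), the long noncoding RNA gene Snhg14 (1192 bp), Duxf3 (1337 bp) and LOC100504180 (1315 bp). The Cd4 peak was unlike them, with 4911 of its 8535 bp under RNA polymerase II, 440 bp under DDX55 and 287 bp under H3K9me3.

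Promoters under R-loop peaks had more CpG than promoters in general where RNA polymerase II was also present, and the same median where it was not. Over 32585 distinct windows the median was 7 CpG and 53.0% G and C. It was 24 CpG and 60.8% in the 24 windows with R-loop and RNA polymerase II, and 7 CpG and 53.3% in the 27 with R-loop alone. The 6019 windows with RNA polymerase II and no R-loop peak had 24 CpG and 62.3%. A run of at least 4 G (GGGG on the gene's strand) was present in 69.4% of all windows, in 84.3% of the 51 with an R-loop peak and in 80.1% of those with RNA polymerase II alone. The same run on the other strand (CCCC) was present in 67.0%, 68.6% and 79.0%. The skew between G and C, their difference over their sum along the gene, had a median of 0.013 in all windows and 0.007 in those with an R-loop peak. Of 6043 windows with RNA polymerase II, 24 (0.397%, 0.255 to 0.590) met an R-loop peak, and of 141 with H3K9me3, 0 did. Chromosome 18, with 88 peaks, has no window in the table used.

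Chromosomes differed less in density once the blocks were left out. The list held 1.36 peaks per Mb on chromosome 12, 1.00 on chromosome 18 and 0.857 on chromosome 15, against a median of 0.529. The X chromosome had the lowest density, 0.199 per Mb, and its 34 peaks included 31 narrow and 0 wide ones, of which 16 narrow peaks met H3K9me3. Outside the blocks the density ran from 0.199 to 0.568 per Mb with a median of 0.402.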

How the data were processed

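CUT&Tag was done on CD4 naive T cells. The authors deposited 1 merged list per target, whose values are of another unit than counts or signal: start and end coordinates in bp. Per the submitters' processing notes the tools were MACS3 3.0.0b1, ChIPseeker 1.30.3, Bowtie2 2.5.0, fastp 0.12.4 and SAMtools 1.15.1, on build mm10. Thresholds, pooling, merging, use of spike-in DNA and use of the RNase H libraries are not given in the sources used here. No column held values per sample.

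Overlaps, gaps and shares were computed with numpy 2.4.6 and pandas 2.3.3 (Python 3.11.15). The overlap and gap steps were checked on simulated intervals with known answers. The counts of R-loop peaks that met each other list were checked with bedtools 2.31.1. Intervals are exact Clopper-Pearson (scipy 1.17.1) for shares and Newcombe for differences. No test across samples was possible. Genes, promoter windows and strands came from RefSeq tables of GRCm38.p6, matched by position. A chromosome span runs between the lowest and highest gene or R-loop peak coordinate on it. The midpoint gave a peak its place: near a gene end if it could, else in a protein-coding body, else in another gene, else intergenic.

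Named genes were the 10 with most peaks, most covered bp, largest covered share (without Gm and Rik symbols) or, of any class, most peaks. Also named were genes at the 10 widest peaks, in the 10 fullest clusters and under the 10 widest promoter peaks, up to 8 members per gene list, and up to 10 genes with 3 lists in the span. Members and lists were chosen with earlier results of these data known. Some members of the gene lists are not reported here.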

Additional observations from a re-analysis of the deposited data

How the results depend on the processing

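The 11 results were recomputed under 15 settings, which gave 79 alternative values: 50 stayed within the interval or range of the reported value, 28 moved beyond it and 1 turned in sign from a reported value whose interval excluded 0. Of all 79, 5 had the other sign: -1.56 (midpoint), -1.56 (50% covered) and -0.0111 points (widest against narrowest 25%) for RNA polymerase II wide minus narrow, and 0.33 (gene end) and 3.24 points (H3K9me3) outside the blocks. The last is the 1 just named. Joining peaks at most 500 bp apart, counted among the 50, could change nothing, since the smallest gap was 1445 bp. Without the 10 fullest clusters 20.7% of peaks were wide, 17.8% had a neighbour within 10 kb, and wide and narrow peaks differed by 35.2 points in having one. With the wider 50% of peaks 147 protein-coding genes held a peak, 33.4% of peaks had a neighbour and 12.8% met H3K9me3. By midpoint 1.98% met RNA polymerase II and 0.819% DDX55, and the wide minus narrow DDX55 difference was 0.376 points. With at least 50% of the peak covered these were 1.98%, 0.751% and 0.0963 points. With wide set at 2000 bp the gene end difference was -5.69 points and the neighbour difference 66.7 points. Between the widest and narrowest 25% the H3K9me3 difference was -8.48 points. With gaps of 3 kb the neighbour share was 10.2% and its difference 19.2 points, and with 50 kb they were 40.2% and 56.8 points. The last settings were chosen after seeing the data. Outside the 30 blocks 11.2% of peaks were wide, 4.6% had a neighbour, 25.7% met H3K9me3 and 4.6% RNA polymerase II. There the wide minus narrow difference was 3.24 points for H3K9me3, 8.77 for RNA polymerase II, 7.19 for DDX55 and 13.7 for a neighbour, where leaving out blocks removes close neighbours by definition. Without the antigen receptor loci 21.8% were wide and 19.4% had a neighbour. No paired analysis was possible because the list holds no values per sample, and leaving out each replicate was not run for the same reason. Depth is unknown, so a place without a peak is not shown to lack R-loops.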

Other observations

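Outside chromosomes 1 to 19 and X the R-loop list held 8 peaks on chromosome Y and 26 on unplaced or unlocalised sequences, which entered no comparison. On the assembled chromosomes the largest gap between a peak and its nearest R-loop neighbour was 17410.6 kb.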
